A study of Mus musculus with 40 samples.

Results

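The cytosolic ribosomal protein genes of mouse T cells were followed by RNA-seq across 8 groups of 3 libraries. The genes were taken by symbol: every symbol starting with Rpl or Rps and a digit, plus Rplp0, Rplp1, Rplp2 and Rpsa, without pseudogene rows ending in -ps and without the Rps6k kinases. This gave 86 of the 21950 genes in the table. Of these, 77 were 1 gene for each ribosomal protein, 31 of the small and 46 of the large subunit. The other 9 were second genes or look-alikes: Rpl3l, Rpl7l1, Rpl10l, Rpl22l1, Rpl36al, Rpl39l, Rps27l, Rps27rt and Rps19bp1. The label held with 2 exceptions, since Rpl7l1 is a ribosome assembly factor and Rps19bp1 a binding partner of a ribosomal protein.

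Conventional CD4+ T cells (Tconvs) and thymus-derived regulatory T cells (tTregs, written nTreg in the labels) were each profiled resting and activated through the T cell receptor. Both came from the spleens of Foxp3 reporter mice of 2 to 4 months on a C57BL/6 background. Induced regulatory T cells (iTregs) were made from naive CD4+ cells of mice of 6 weeks, which were cultured for 4 days with plate-bound anti-CD3 (0.5 µg per ml), anti-CD28 (1 µg per ml), IL-2 and TGF-β (2 ng per ml), sorted on the Foxp3 reporter and rested for 1 day with IL-2. They were profiled resting, restimulated through CD3 and CD28, or restimulated with an inhibitor. The inhibitor libraries were named ORAIinh, which is CM-4620, a blocker of the store-operated calcium channel ORAI, and CsA, cyclosporine A, which blocks the phosphatase calcineurin and thus NFAT. The cell type label of the CsA libraries reads Treg, and their titles name iTreg. All iTreg groups therefore shared a culture with stimulation and TGF-β that the tTreg and Tconv groups did not have, and the mice differed in age between them. How long activation and restimulation lasted in the RNA-seq groups is not given in the sources used here, and nothing says whether the 3 libraries of a group came from separate mice or cultures, so p-values measure the spread between these libraries.

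Each cytosolic ribosome is built from 1 copy of nearly every protein named here, assembled on ribosomal RNA in the nucleolus. Ribosomal protein mRNAs are among the most abundant of a cell. Most carry a 5′ terminal oligopyrimidine (TOP) tract, a run of C and T that starts at the cap, through which LARP1 and mTOR signaling control their translation, so their mRNA level and their protein output need not move together. A resting T cell holds few ribosomes and makes many more when it is activated and prepares to divide. Some ribosomal proteins, such as those of Fau and Rack1, have genes whose symbols do not show it.

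The start sites of 66 of the 86 genes were found in RefSeq (GRCm38.p6), from which the stretch of 10 bases before to 20 bases after the annotated start is shown for members that the comparisons below turn on. Letters in capitals mark the longest run of C and T that touches the first 5 bases on either side of the start, the first of them where 2 are equally long, as in Rps27rt, where an unmarked run of 6 begins at the start itself. Rps6, which codes for the target of S6 kinase, and Rpl28 show the usual tract, Rps26 and Rps2 are the members that rose most in activated tTregs, Rps27 and its retrogene Rps27rt fell most in activated Tconvs, and Rpl22l1 is the only member called on restimulation of iTregs.
Rps6 (chr4:86857348-86857377, minus strand): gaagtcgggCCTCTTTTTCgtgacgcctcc
Rpl28 (chr7:4792955-4792984, plus strand): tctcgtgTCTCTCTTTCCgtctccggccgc
Rps26 (chr10:128626487-128626516, minus strand): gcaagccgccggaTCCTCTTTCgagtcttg
Rps2 (chr17:24720053-24720082, plus strand): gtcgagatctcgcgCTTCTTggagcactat
Rps27 (chr3:90213629-90213658, minus strand): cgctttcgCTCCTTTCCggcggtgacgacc
Rps27rt (chr9:114982720-114982749, minus strand): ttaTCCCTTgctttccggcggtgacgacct
Rpl22l1 (chr3:28805498-28805527, plus strand): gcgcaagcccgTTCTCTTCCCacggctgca

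A run of at least 7 such bases at the start was found in 29 of the 66 members and in 15.7% of all 27025 genes with a start site in that table. The run of Rps2 and that of Rps27rt had 6 bases, and the other windows shown had 9 to 11. In the 300 bases from 250 before to 50 after the start, the letters CCGGAAG, the core of an ETS factor site, were found on either strand in 26 of the 66 members and in 9.93% of all genes. AAGATGGC, the core of a YY1 site, was found on either strand in 6 members and 3.19% of all genes, and TATAAA, on either strand, in 7 members and 15.7% of all genes. These are matches of letters, not sites in use. In resting tTregs against resting Tconvs, the members with and without a run of C and T at the start had like medians. The median log2 fold change was −0.79 over 26 one-per-protein genes with it and −0.85 over 31 without it. On activation of tTregs the medians were 0.46, with 12 of the 26 called higher, and 0.45, with 13 of the 31. Of all genes, 11.9% were called higher there. In resting iTregs against resting tTregs the medians were 0.49, with 12 of the 26 called higher, and 0.60, with 25 of the 31. In that comparison 32.3% of all genes were called higher. The part of the run in these differences was not tested.

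Copies of these genes limit what a short read can tell. GENCODE M21 lists 301 pseudogene loci with ribosomal protein names, while the table holds 5 pseudogene rows. The share of 50-base stretches of a member's mRNA that also occur in a transcript of another gene had a median of 55.5% over the 77 genes, from 0 to 98.6%, and was above 50% in 47 of them. The highest was Rps27, of which 98.6% of the stretches are also in Rps27rt, so that reads cannot be assigned to one of this pair with confidence. Rps2 has 79.0% of its stretches in 71 other genes, Rps12 90.1% and Rps26 37.8%. For Rps19bp1 it was 0. Genes above and below 50% had like median differences between resting tTregs and resting Tconvs, −0.82 over 47 genes and −0.83 over 30. They were further apart elsewhere. On activation of Tconvs the medians were 0.20, with 16 of the 47 called higher, and 0.09, with 4 of the 30. In resting iTregs against resting tTregs they were 0.68, with 33 higher, and 0.51, with 15 higher. Of all genes, 24.5% and 32.3% were called higher in these comparisons. The part of shared sequence in this was not tested.

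All values below are normalized counts, the gene counts divided by the size factor of their library. The libraries held 5256800 to 15685234 reads on genes, with 5256800 to 9893053 in the tTreg libraries and at least 9808711 in the others. Every one-per-protein gene had at least 633 reads in every library. Between libraries of a group, the variance was 2.87 to 41.2 times that of counting. It was 13.8 to 41.2 times in tTregs, 3.16 to 10.3 in Tconvs and 2.87 to 18.8 in iTregs. Each fit took 1 spread per gene from all its groups, so its SEs and p-values do not reflect this difference between groups. Foxp3, Il2ra, Ikzf2 and Ctla4 together summed to 458 to 478 in resting Tconvs and 25348 to 28206 in resting tTregs, as their labels say. Of the B cell markers, Ms4a1 was at 0 throughout, Cd79a was at 14.9 to 22.6 in resting Tconvs and 1.81 to 14.3 in resting tTregs, and Cd79b was at 5.27 to 9.38 in resting Tconvs and 122 to 126 in resting tTregs. The NK markers Ncr1 and Klrb1c summed to 19.3 to 30.9 in resting Tconvs and were at 0 in all tTreg and iTreg libraries. The CD8 T cell markers summed to 223 to 236 in resting Tconvs and 157 to 178 in resting tTregs. The red cell markers summed to 24.2 to 26.2 in resting iTregs, 3.51 to 11.4 in the other iTreg groups and 0 in resting Tconvs. The part of these cells in the difference between the groups was not tested. Library 3 of resting iTregs stood apart from libraries 1 and 2 in the share of reads described next.

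Ribosomal protein mRNAs took between 9.67% and 17.7% of all reads on genes. The share was 15.7% ± 0.266 (SD, n = 3) in resting Tconvs and 16.8% ± 0.823 in activated ones, the highest of the 8 groups. It was lowest in resting tTregs, with 10.2% ± 0.678, and reached 12.6% ± 0.354 in activated ones. In resting iTregs the libraries gave 13.4%, 13.0% and 11.4%, the last from library 3. Restimulated iTregs held 14.2% ± 0.120, 14.6% ± 0.348 with the ORAI inhibitor and 15.0% ± 0.268 with CsA. No library of resting tTregs reached the share of any other group. The ranges overlapped only between activated tTregs and resting iTregs and between the inhibitor groups. In bulk RNA, fewer reads from a gene per cell and fewer cells that express it cannot be told apart, and a share does not show how much RNA a cell holds.

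**Figure D1:**
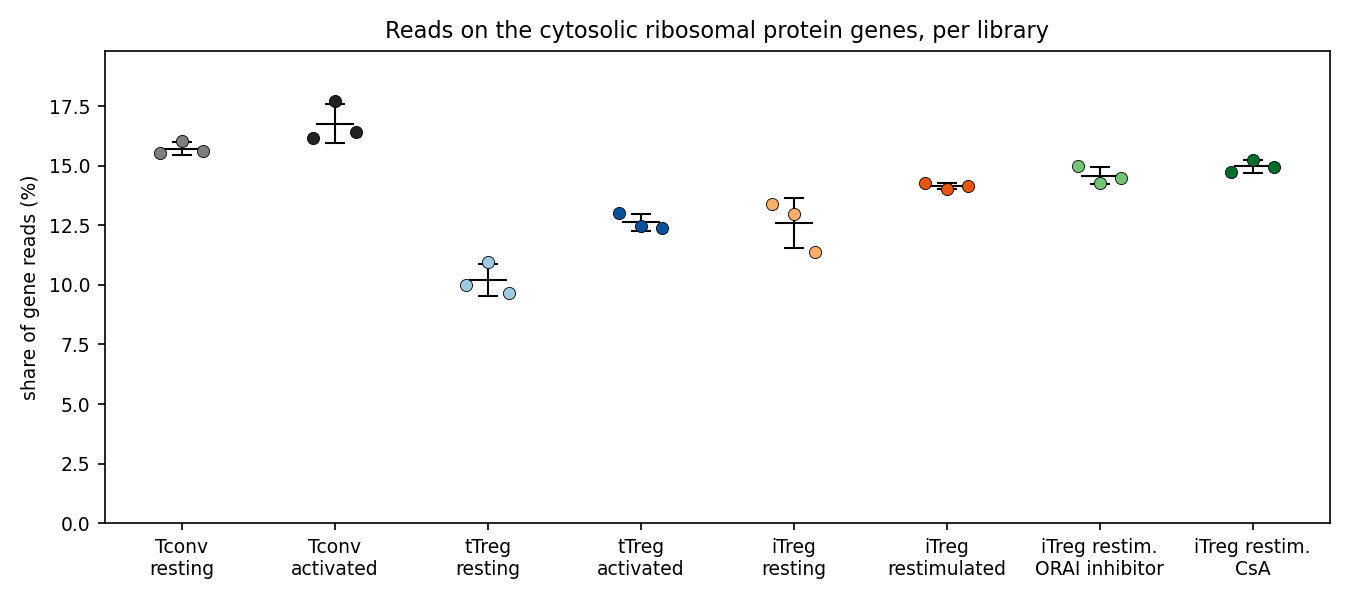
Share of all gene reads (%) that fell on the 86 ribosomal protein genes, 1 point per library, with the mean and SD of each group of 3. Resting tTregs lie lowest, at 9.67% to 11%, and activated Tconvs highest, at 16.2% to 17.7%.

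The ribosomal protein mRNAs moved together. For each of the 77 genes the log2 level was compared with the mean of the other 76 over the 24 libraries: Pearson's r had a median of 0.89, and 57 genes were above 0.8. These libraries share their groups, so r describes the pattern of the groups. Resting tTregs had the lowest mean of the 8 groups for 71 of the 77 genes. The highest mean was in activated Tconvs for 38 genes, in resting Tconvs for 19, in CsA-treated iTregs for 18 and in activated tTregs for 2. Rps27 stood furthest from the common pattern (r = 0.23), followed by Rpl4 (0.42), which lines the exit tunnel, and Rps24 (0.55). Outside the members, the genes most like their mean over the 24 libraries were Nop10 (r = 0.97), a protein of the box H/ACA snoRNPs that modify ribosomal RNA, Eif3k (0.95), a subunit of the initiation factor eIF3, Tmem179b (0.93), Higd2a (0.92) and Apopt1 (0.92), of 11641 genes compared.

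**Figure D2:**
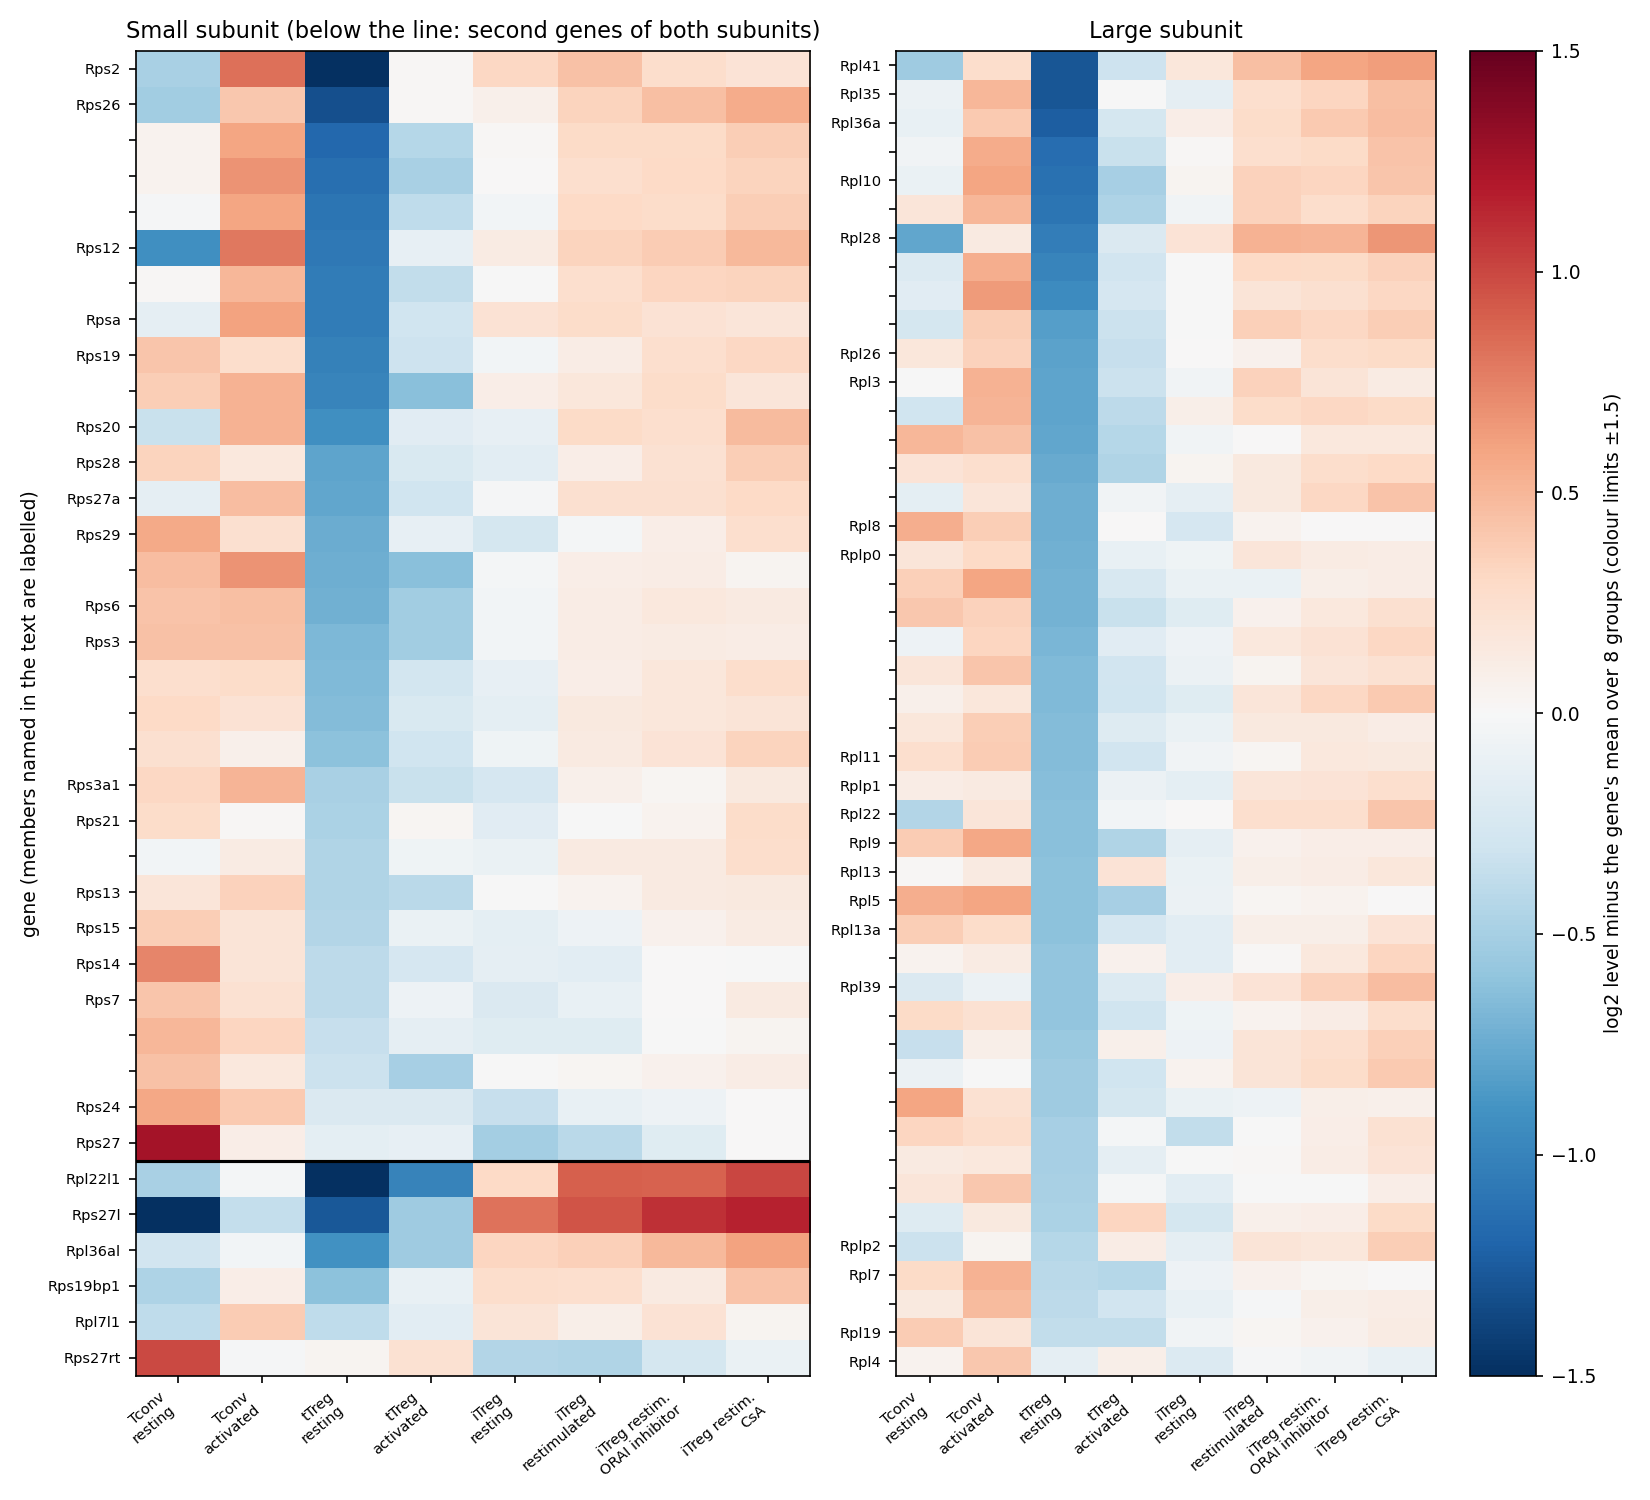
Mean log2 level of each of the 83 tested members in the 8 groups, minus the mean of that gene over the groups. Blue is below and red above the gene's own mean, genes are ordered by their level in resting tTregs, and values past ±1.5 have the end colour. For 71 of the 77 one-per-protein genes the lowest value is in resting tTregs. Among the others, Rps27, Rps24 and Rpl4 are lowest in resting iTregs and Rpl7 and Rpl19 in activated tTregs. Gene names are given for members named in the text.

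Per kilobase of mRNA, Rplp0, the core of the ribosomal stalk, had the highest mean level over the 24 libraries, 56386 normalized counts per kb, followed by Rpl41, the shortest ribosomal protein, with 55663, and Rpl13 with 48735. Rps2 had the lowest of the one-per-protein genes after Rps20, 3333 and 3132 per kb. Both are uncertain, Rps2 since copies share most of its sequence and Rps20 since the transcript used for its length has 3706 bases, the longest of the 77, against a median of 729. The order of the 77 genes by mean normalized count, not divided by length, was compared between groups by Spearman's rho. It was 0.96 between resting Tconvs and resting tTregs, 0.89 between resting Tconvs and resting iTregs, 0.90 between resting tTregs and resting iTregs, and 0.97 between activated Tconvs and resting iTregs. The lowest of all pairs of groups was 0.87, between resting Tconvs and restimulated iTregs. The small subunit genes took 42.8% ± 0.0489 of the reads on the 77 genes in Tconvs at rest and 41.4% ± 0.152 after activation. In tTregs they took 39.5% ± 0.241 at rest and 38.2% ± 0.672 after activation, and in iTregs at rest 40.6% ± 0.227. None of the Tconv libraries overlapped with the tTreg libraries in this share.

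Of the second genes, Rpl10l, which in mouse is known from the testis, had no read in any library. Rpl3l, a muscle gene, had at most 1 read, and Rpl39l, also known from the testis, at most 19. These were not tested. The remaining 83 members passed the filter of at least 10 normalized counts in 3 libraries, and all 83 were tested with limma. A gene was called where its adjusted p was below 0.05 and its log2 fold change was past 0.5 in either direction. For the comparisons, the share of all genes was counted for these calls and for libraries that do not overlap. Counts of members by any other rule, scaling or set of libraries are given without that share. They describe the members alone and do not show whether members differ from other genes.

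Resting tTregs against resting Tconvs asks how the regulatory lineage differs before activation, and of the comparisons made here it had the members' median furthest from 0. Of 83 members, 69 were lower in resting tTregs and 1, Rps27l, was higher, while 18.2% of all 11495 genes tested were called lower and 20.5% higher. All 3 tTreg libraries lay below all 3 Tconv libraries for 77 members, against 29.5% of all genes. The median log2 fold change of the members was −0.82 and that of all genes −0.02. Both subunits took part, with 29 of 31 small and 37 of 46 large subunit genes lower.

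Rps19, mutated in Diamond-Blackfan anemia, had the lowest fold change of the members. It was at 30003, 31454 and 31803 normalized counts in resting Tconvs and at 11198, 12487 and 10973 in resting tTregs. No library overlapped, and the log2 fold change was −1.43 ± 0.10 (SE; limma, adjusted p = 2.4e-08). Rps27, a zinc finger protein of the small subunit, was at 30735, 30797 and 30493 in Tconvs and at 10589, 14442 and 10327 in tTregs (−1.4 ± 0.16). No tTreg library reached a Tconv library for either of these members.

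Rps6 was lower by a log2 fold change of −1.14, with 37664, 37670 and 38961 in resting Tconvs and 17715, 17943 and 16134 in resting tTregs. Rplp0 was at 81552, 87456 and 85748 in Tconvs and 44991, 48084 and 43400 in tTregs (−0.90). The partners of 5S ribosomal RNA that bind MDM2 when assembly fails, Rpl5 and Rpl11, differed by −1.16 and −0.90, and Rpl3, at the peptidyl transferase center, by −0.79. Rpl10, a late joining protein at the same center, differed by −1.03, Rpsa by −0.91, and Rpl13a by −0.99. Rplp2, with −0.11, Rpl22, with −0.19, and Rpl39, with −0.37, did not pass the thresholds.

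Rps27l, a second gene for Rps27 that p53 is known to induce, went the other way, with 374, 330 and 397 in resting Tconvs and 535, 611 and 495 in resting tTregs (0.57 ± 0.12, adjusted p = 0.00098 by limma). Rpl7l1 differed by 0.01.

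The size of this difference depended on the scaling. With libraries scaled to the same total over all genes, the median of all genes moved to 0.24 and that of the members to −0.56. The members then lay 0.79 below all genes, against 0.80 before. Such scaling shifts all genes of a library alike, so it could hardly change this distance. With quantile normalization, 24 members were called, 2 higher and 22 lower. The members' median was then −0.30, and minus that of all genes it was −0.26. Rpl13, Rpl19, Rpl7 and Rps13 had a fold change above 0.

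Activation of Tconvs asks what the T cell receptor changes in conventional cells. The ribosomal protein genes divided: 22 members rose and 3 fell, 25 in all, with 24.5% of all genes called higher, 25.7% lower and 50.2% either way. The median log2 fold change was 0.20, against −0.04 over all genes, with all 3 activated libraries above all 3 resting ones for 48 members, against 35.4% of all genes, and below them for 11, against 38.5%. The share called higher was close to that of all genes, and the share called lower was under it. The median was 0.12 with libraries scaled to the same total over all genes and 0.03 with quantile normalization, where it lay 0.07 above that of all genes instead of 0.24. The large subunit had 11 genes higher and none lower, the small subunit 9 higher and 2 lower.

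Rps12, a small subunit protein, rose most, from 5063, 5407 and 4881 in resting Tconvs to 15906, 18356 and 15815 after activation (1.70 ± 0.09, adjusted p = 7.1e-10). Its groups were far apart. Rps27l rose from between 330 and 397 to between 954 and 1149 (1.48 ± 0.12), and Rps2, which lines the mRNA entry channel, from between 1925 and 2319 to between 4453 and 6279 (1.32 ± 0.28).

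Rps27 fell from between 30493 and 30797 to 12861, 15844 and 13167 (−1.14 ± 0.16, adjusted p = 1.4e-05 by limma). Rps27rt fell from between 819 and 907 to between 406 and 481 (−1.0 ± 0.21), a change that cannot be separated from that of Rps27 in shared reads. Rps14, whose loss causes the anemia of 5q deletions, fell from 41686, 43843 and 43424 to 27753, 31351 and 29900 (−0.54 ± 0.09). Of the members chosen for their known roles, Rpsa rose by 0.73, Rpl41 by 0.79, Rpl10 by 0.68, Rpl22 by 0.62, Rps27a by 0.60 and Rpl3 by 0.53, while Rps6 (0.02), Rps3 (0.00), Rplp1 (0.02), Rpl5 (0.05), Rpl11 (0.12) and Rplp0 (0.12) did not pass. By adjusted p alone, 33 members were higher and 5 lower, a rule for which the share of all genes was not counted.

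Activation of tTregs asks the same of the regulatory lineage. Of 83 members, 36 rose and 0 fell, with 11.9% of all genes called higher and 10% called lower. The median was 0.46 against 0.00 over all genes, and 80 of 83 members had a fold change above 0. All 3 activated libraries lay above all 3 resting libraries for 57 members, against 19% of all genes.

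Rps2 rose most, from 574, 1222 and 1421 in resting tTregs to 3776, 3050 and 2372 after activation (1.59 ± 0.28, adjusted p = 0.00064 by limma). Its libraries were the most spread of these members, and its level rests on a sequence shared with many copies. Rps26 rose from 5518, 6685 and 5943 to 17042, 13212 and 15347 (1.33 ± 0.11). Rpl35 rose from 3277, 4597 and 3378 to 10389, 7631 and 9079 (1.27 ± 0.15), and 66.2% of its exon bases overlap Arpc5l and Wdr38, which the unstranded libraries cannot separate. Rpl41 rose by 0.97, Rpsa by 0.74, Rps19 by 0.70, Rplp0 by 0.61, Rplp1 by 0.55 and Rplp2 by 0.54.

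Rpl7 had a fold change below 0 (−0.03 ± 0.08) and did not pass. Rps6 was at 17715, 17943 and 16134 before and at 20364, 21341 and 17651 after activation (0.19), and Rpl5 differed by 0.12. Even after activation, the sum over all members stayed below every Tconv library in its share of reads. Without the libraries numbered 1, 23 members were called higher instead of 36. By adjusted p alone, 58 were higher, and with a log2 fold change above 1, 3. The shares of all genes by these rules were not counted. Scaling to the same total moved the median of all genes to −0.12 and that of the members to 0.34.

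**Figure D3:**
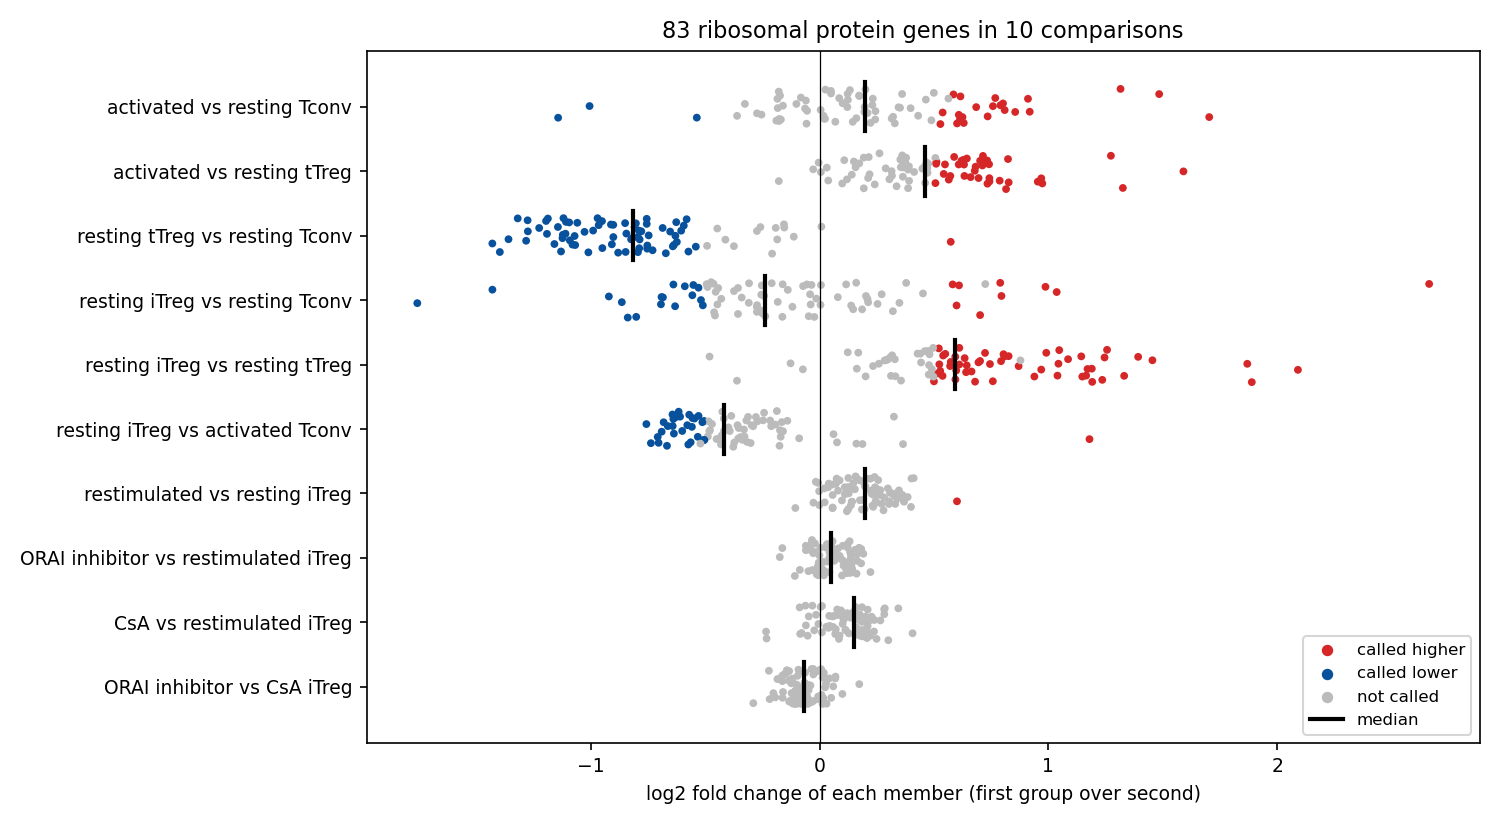
Log2 fold change of each of the 83 tested members in 10 comparisons, red or blue where called higher or lower by limma and grey otherwise, with the median as a black bar. The median is furthest below 0 in resting tTregs against resting Tconvs (−0.82) and within 0.20 of 0 in the 4 comparisons among iTregs.

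The difference between both activation responses was tested as an interaction. It was called for 16 members: for 13 the response was higher in tTregs and for 3 lower, with 17.7% of all genes called higher, 17% lower and 34.7% either way. The median difference of the members was 0.21 and that of all genes 0.05. The 16 are thus a smaller share of the members than the called genes are of all genes.

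The largest differences were those of Rps27rt (1.20 ± 0.30) and Rps27 (1.17 ± 0.22, adjusted p = 0.00067 by limma), which fell in Tconvs and had fold changes of 0.19 and 0.03 in tTregs. Rps27 in tTregs went from 10589, 14442 and 10327 to 13165, 9973 and 12857, and its groups overlapped. Rps29 followed (0.95 ± 0.24), with 17766 to 19536 in resting and 13434 to 16748 in activated Tconvs, and 6441 to 9295 in resting and 9135 to 13535 in activated tTregs. Rps12 (−0.75 ± 0.13), Rps27l (−0.75 ± 0.17) and Rpl7l1 (−0.55 ± 0.18) rose more in Tconvs. Rps12 rose in tTregs too, from between 4358 and 4831 to between 8688 and 9127. The number of calls rested on single libraries: it was 10 without activated tTreg library 1, 27 without activated tTreg library 2 and 25 without resting tTreg library 2.

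**Figure D4:**
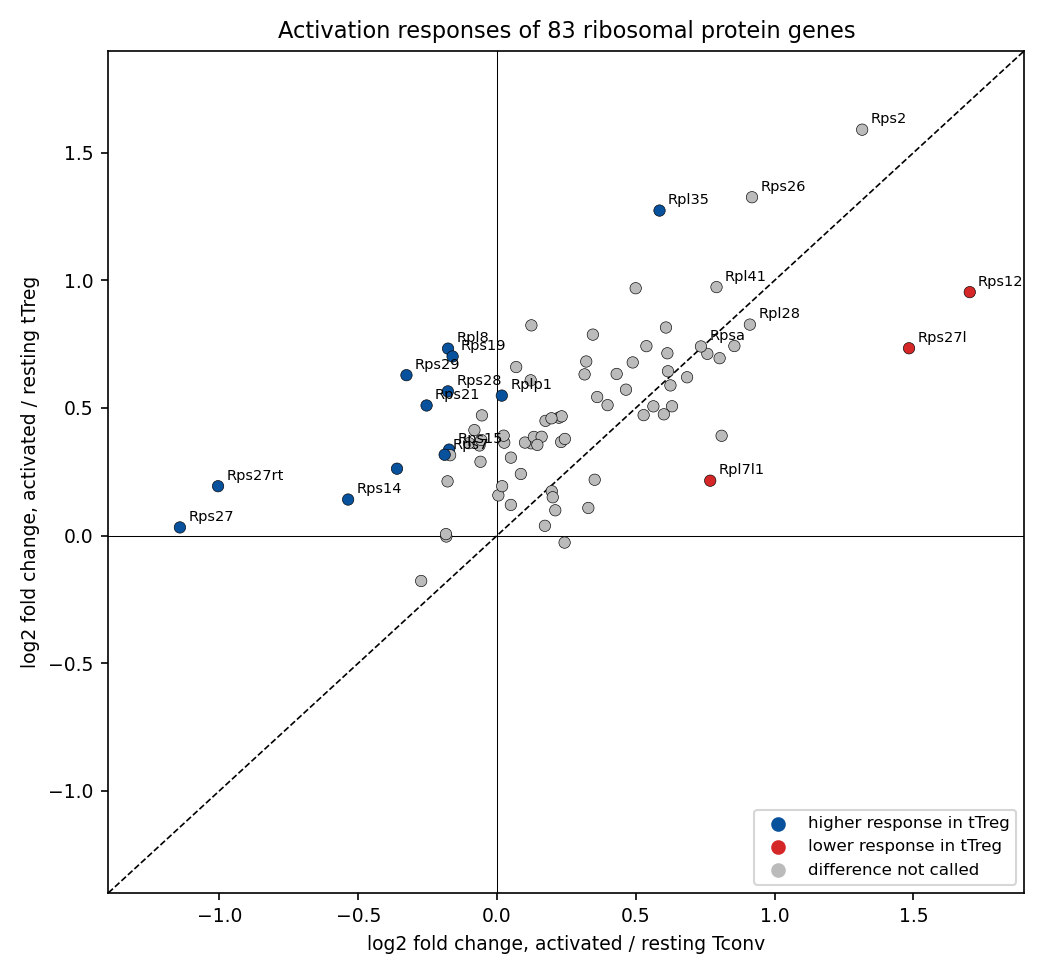
Log2 fold change on activation in Tconvs (x axis) and in tTregs (y axis) for the 83 tested members, with the line of equal response dashed. Coloured points passed the interaction test, 13 with a higher and 3 with a lower response in tTregs. Rps27 and Rps27rt lie far left, near 0 in tTregs, and Rps12 and Rps27l below the line.

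Resting iTregs against resting Tconvs compares the induced cells with the lineage they were made from. The calls went both ways: 9 members were higher and 17 lower, 26 in all, with 32.8% of all genes called higher, 30.8% lower and 63.6% either way. For 14 members all iTreg libraries lay above all Tconv libraries, against 41.1% of all genes, and for 44 below, against 39.3%. The median was −0.24 against 0.02 over all genes. Rps27l was 374, 330 and 397 in resting Tconvs and 2730, 2337 and 1974 in resting iTregs (2.66 ± 0.12, adjusted p = 3.8e-11 by limma). Rps12 (1.04 ± 0.09) and Rpl28 (0.99 ± 0.13) followed, the latter with 4258 to 4885 in Tconvs and 7254 to 10113 in iTregs.

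Rps27 was lower in iTregs, with 10424, 9788 and 7311 against 30493 to 30797 in Tconvs (−1.76 ± 0.16). Rps27rt was at 244 to 412 against 819 to 907 (−1.43 ± 0.21), and Rps24, known from Diamond-Blackfan anemia, at 10811 to 14570 against 23441 to 24799 (−0.92 ± 0.12). Rpl5 differed by −0.63 and Rps14 by −0.86, while Rpl41 was higher by 0.70. Without resting iTreg library 3, 11 members were called higher and 10 lower, so the larger number of lower calls rests on that library. By adjusted p alone, 13 were higher and 40 lower, and with the same total over non-member genes 7 were higher and 27 lower. The shares of all genes under these settings were not counted.

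Resting iTregs against resting tTregs compares the induced with the thymus-derived regulatory cells. Of the members, 52 were higher in iTregs and 0 lower, with 32.3% of all genes called higher, 31.1% lower and 63.4% either way. All iTreg libraries lay above all tTreg libraries for 64 members, against 38.1% of all genes. The median was 0.59, against 0.02 over all genes. This comparison shares its tTreg libraries with the activation of tTregs and with the comparison of tTregs and Tconvs.

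Rps27l (2.09 ± 0.12), Rps2 (1.89 ± 0.28) and Rpl22l1 (1.87 ± 0.17) differed most. Rpl22l1, a second gene for Rpl22, was at 650, 906 and 606 in resting tTregs and at 3308, 2702 and 1955 in resting iTregs. The lowest members were Rps27rt (−0.48 ± 0.21, adjusted p = 0.053 by limma) and Rps27 (−0.36 ± 0.16, adjusted p = 0.048), which did not pass both thresholds. Among those with known roles, Rpl41 differed by 1.46, Rpl10 by 1.17, Rps19 by 0.97, Rps6 by 0.68, Rplp0 by 0.66 and Rpl5 by 0.53. Scaling to the same total moved the median of all genes to −0.29 and left 24 members higher and 2 lower, and under quantile normalization 19 were higher and 4 lower and 9 of the called members, among them Rps6, Rps3, Rpl3 and Rpl5, had a fold change below 0.

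Resting iTregs were also set against activated Tconvs, conventional cells that had also been stimulated. Here 30 members were lower in iTregs and 1, Rps27l, was higher, with 18.7% of all genes called lower, 22.9% higher and 41.6% either way. The median was −0.42, and 62 members had all iTreg libraries below all Tconv libraries, against 32.1% of all genes. Rps3a1 was at 32322 to 36825 in activated Tconvs and 17180 to 22756 in iTregs (−0.76 ± 0.10), Rps24 differed by −0.74 ± 0.12 and Rpl9 by −0.71 ± 0.08. Rps27l was at 954 to 1149 in activated Tconvs and 1974 to 2730 in iTregs, which did not overlap, and Rpl36al, with 0.37, was next. Without resting iTreg library 3, 3 were higher and 15 lower, and under quantile normalization 1 was higher and 7 lower. With a log2 fold change above 1, Rps27l alone was called.

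Restimulation of iTregs shifted most members slightly and only 1 past the thresholds. Of 83 members, Rpl22l1 was called higher and 0 were lower, with 6.7% of 11105 genes called higher and 6.13% lower. The median was 0.20, against −0.01 over all genes, and 77 of 83 fold changes were above 0. Without resting iTreg library 3 the median was 0.09 and 62 fold changes were above 0. For 47 members all 3 restimulated libraries lay above all 3 resting ones, against 19.8% of all genes, and for 0 members below them, against 20.9%. By adjusted p alone 37 were higher. The 95% interval lay within ±0.5 on the log2 scale for 68 members. Neither was counted over all genes.

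Rpl22l1 went from 3308, 2702 and 1955 to 3813, 3760 and 4255 (0.60 ± 0.13, adjusted p = 0.0037 by limma). Its groups did not overlap, and the lowest value was that of resting iTreg library 3, without which no member was called. Without resting iTreg library 1, 3 were called. Rps20 was next (0.41 ± 0.12). Rpl3 was not called either, with 49368, 46914 and 45576 before and 59902, 61561 and 65743 after (0.40). Rps6 differed by 0.14, Rplp0 by 0.25 and Rpsa by 0.06. Rpl7l1 (−0.11 ± 0.06) and Rps14 (−0.03 ± 0.06) had the lowest values.

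Neither inhibitor moved a ribosomal protein gene past the thresholds when compared with restimulation alone. With the ORAI inhibitor, limma called 0 members higher and 0 lower, with 1.5% of all genes called higher, 1.79% lower and 3.3% either way. Of the members, 9 had an unadjusted p below 0.05, a count not made over all genes. Both edgeR and DESeq2 called 0 members too. The median was 0.05, and the 95% interval lay within ±0.5 for 80 of 83 members. Intervals were not counted over all genes. All ORAI inhibitor libraries lay above all restimulated libraries for 22 members, against 13.8% of all genes, and below them for 1, against 12.5%. Rps27 (0.22 ± 0.10) and Rpl26 (0.19 ± 0.07) were furthest up, Rps2 (−0.17 ± 0.18) and Rpl3 (−0.16 ± 0.06) furthest down.

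With CsA, limma again called 0 members in either direction, with 1.57% of all genes called higher, 1.35% lower and 2.92% either way, and so did edgeR and DESeq2. An unadjusted p below 0.05 was reached by 29 members, and the share of all genes that reached it was not counted. The median was 0.15 against 0.00 over all genes, 70 of 83 fold changes were above 0, and all CsA libraries lay above all restimulated libraries for 53 members, against 14% of all genes. Rps27 was at 9386, 9547 and 10487 after restimulation and at 12032, 13749 and 13236 with CsA (0.41 ± 0.10, adjusted p = 0.027 by limma). Rpl3 went the other way, with 59902, 61561 and 65743 against 50258, 53289 and 55959 (−0.23 ± 0.06, adjusted p = 0.027). Both passed on p but were under the fold threshold. By adjusted p alone, 2 members were higher and 1 lower, and the interval lay within ±0.5 for 77 members. Neither was counted over all genes.

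Between the inhibitors, limma, edgeR and DESeq2 called 0 members, with 0.0991% of all genes called higher and 0.261% lower by limma. An unadjusted p below 0.05 was reached by 1 member, and the share of all genes that reached it was not counted. The median, ORAI inhibitor over CsA, was −0.07. The 95% interval lay within ±0.5 for 82 members, the exception being Rps19bp1 (−1.21 to 0.63), the least expressed of those tested. Here too, intervals of all genes were not counted. In each of the 4 iTreg groups, library 3 had the lowest value of Rps19bp1 and of Rps2.

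Second genes for the same protein changed their balance between cell types. Rps27l took 1.06% to 1.28% of the reads on Rps27 and Rps27l in resting Tconvs and 6.75% to 7.12% after their activation. In tTregs it took 4.06% to 4.81% at rest and 6.53% to 8.22% after activation. In iTregs it took more: 19.3% to 21.3% at rest, 20.2% to 21.4% after restimulation, 19.3% to 20.5% with the ORAI inhibitor and 17.8% to 19% with CsA. All 12 iTreg libraries lay above all 12 others. Since 98.6% of the 50-base stretches of Rps27 are also in Rps27rt and 22.4% of those of Rps27l are in another gene, the level of Rps27l is the less uncertain.

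Rpl22l1 took 36.2% to 40.5% of the reads on Rpl22 and Rpl22l1 in resting Tconvs and 35.6% to 36.3% in activated Tconvs, which overlapped. It took 24.6% to 26.5% in resting tTregs and 25% to 25.5% in activated tTregs, below every other library. In resting iTregs it took 43.0% to 46.8%, and after restimulation 48.6% to 51.7%. Rpl36al took 30.6% to 31.7% of the pair with Rpl36a in resting Tconvs, 38.6% to 39.5% in resting tTregs and 28.5% to 30.8% in activated tTregs. Rps27rt took 2.59% to 4.69% of its pair with Rps27 over all libraries. Rps19bp1 was at 40.8 to 266 normalized counts, with libraries of a group up to several times apart, and was called in no comparison.

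**Figure D5:**
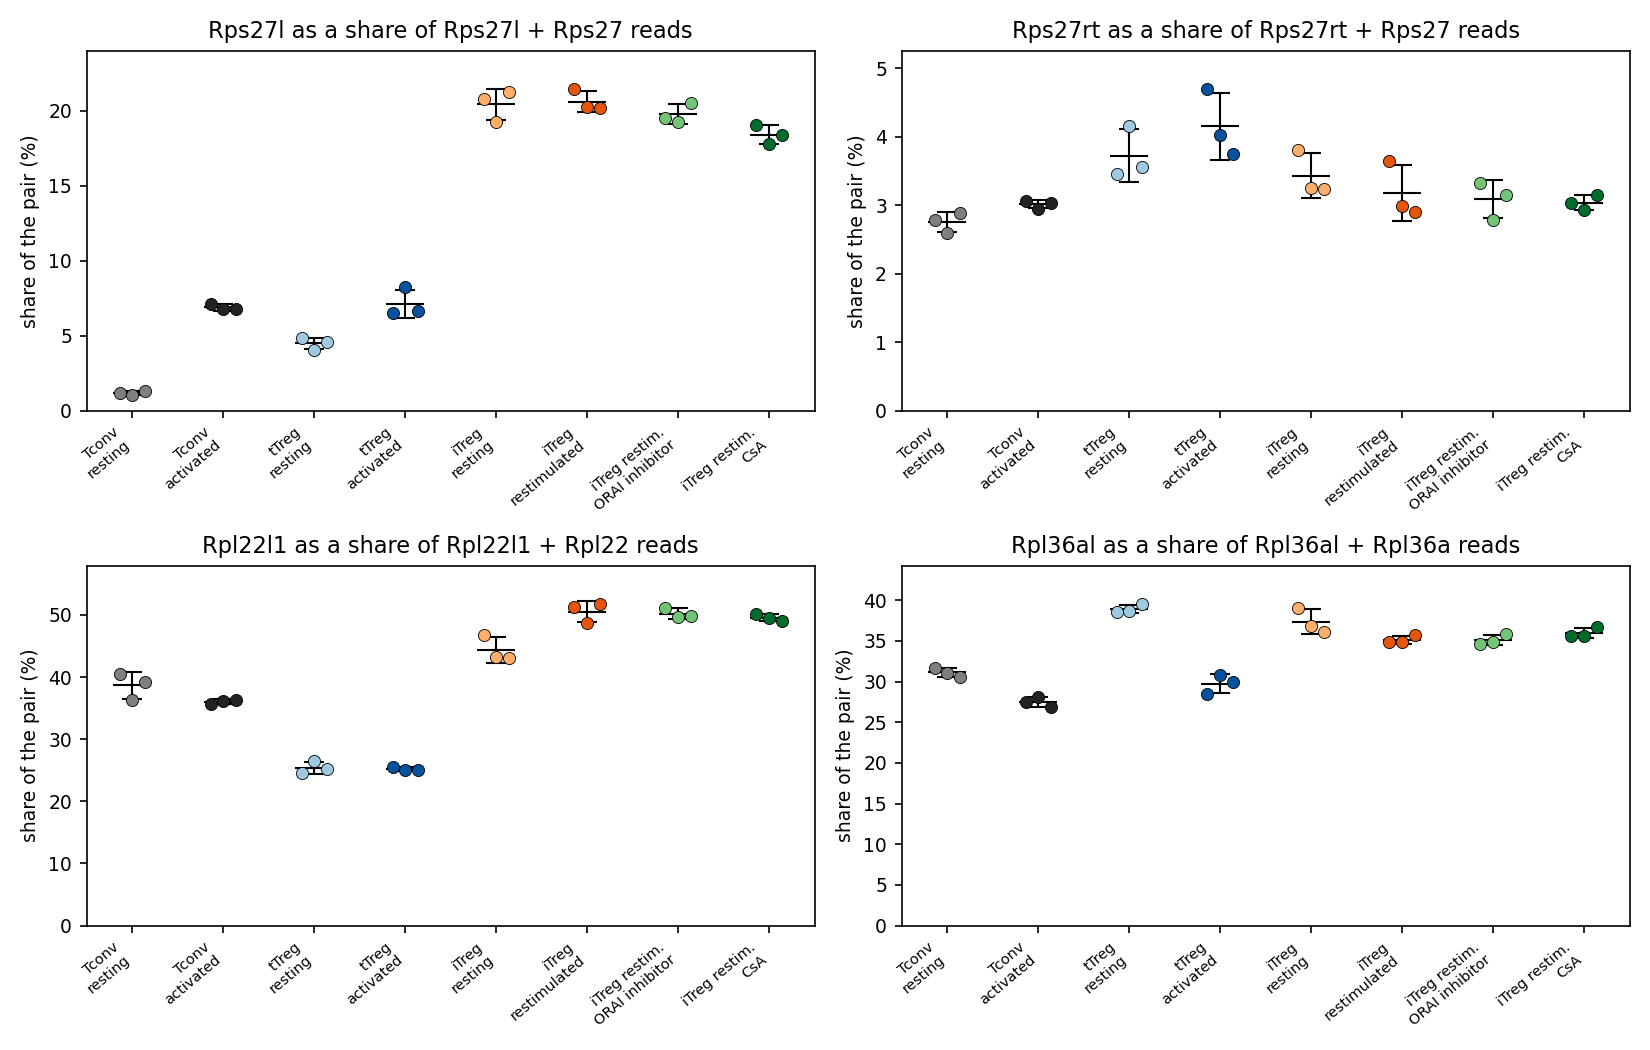
Reads on a second gene as a share (%) of the reads on the pair, 1 point per library, with the mean and SD of each group of 3. Rps27l is at 1.06% to 8.22% in Tconvs and tTregs and at 17.8% to 21.4% in iTregs, and Rpl22l1 is lowest in tTregs.

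Genes of ribosomal proteins that the symbols leave out were followed too. Fau and Rack1 were both lower in resting tTregs than in resting Tconvs (−0.87 and −0.84). In activated Tconvs, Fau fell (−0.56), and Rack1 (0.47) was not called. In activated tTregs neither was called.

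Of 20 mRNAs for translation factors and other known TOP messages, 11 were lower and 0 higher in resting tTregs, where 18.2% of all genes were lower. In activated Tconvs 9 rose and 0 fell, with 24.5% of all genes higher. In activated tTregs 3 rose and 0 fell, a share close to the 11.9% of all genes. The interaction was called lower for 7, with 17% of all genes. Eef1g, a subunit of the elongation factor complex, rose by 1.09 in Tconvs and had a fold change of 0.47 in tTregs, and Pabpc1, the poly(A) binding protein, rose by 1.01 and had 0.39. Eef1a1, the main elongation factor, was lower in resting tTregs (−0.81) and was not called on either activation (0.20 and 0.45). On restimulation of iTregs, 3 of the 20 rose, Hnrnpa1, Npm1 and Pabpc1, with 6.7% of all genes higher.

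The 78 mitochondrial ribosomal protein genes are given beside them, and their difference from the cytosolic members was not tested. On activation 51 rose and 0 fell in Tconvs, with 24.5% of all genes higher, and 22 rose and 0 fell in tTregs, with 11.9% higher. The response in tTregs was lower for 26 and higher for 1, with 17% and 17.7% of all genes. Their share of reads was 0.349% to 0.352% in resting Tconvs and 0.340% to 0.369% in resting tTregs, which overlapped, while the shares of the cytosolic members did not. In this comparison 2 were higher and 13 lower in tTregs, the latter a share close to the 18.2% of all genes. In resting iTregs, 55 were higher and 1 lower than in resting Tconvs, with 32.8% of all genes higher and 30.8% lower.

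Among 10 regulators of TOP mRNA translation, 4 rose and 2 fell in activated Tconvs, with 24.5% of all genes higher and 25.7% lower. In activated tTregs 1 rose and 1 fell, with 11.9% and 10% of all genes. Larp1, the TOP binding protein, rose in activated Tconvs (1.45) and was higher in resting tTregs (1.21). Myc, which drives ribosome synthesis, rose in activated Tconvs (3.19), was higher in resting tTregs than in resting Tconvs (2.99), and had 0.21 on activation of tTregs. Eif4ebp1, a repressor of cap-dependent translation that mTOR inactivates, rose on both activations (2.32 and 1.34). Of 8 genes listed as carriers of single ribosomal proteins, 2 rose and 0 fell in activated Tconvs, with 24.5% of all genes higher and 25.7% lower. In activated tTregs 1 of the 8 rose and 1 fell, with 11.9% and 10% of all genes. Tsr2, the carrier of Rps26, rose in activated Tconvs (0.64) and fell in activated tTregs (−0.52). Ltv1, a partner of Rps3, rose in Tconvs (0.64) with −0.48 in tTregs. In resting tTregs 0 of the 8 carriers and 5 of the 10 regulators were called, the latter all higher, with 20.5% of all genes higher and 18.2% lower.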

How the data were processed

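SMART-seq2 libraries (poly(A), unstranded) of 24 samples were analysed. The authors trimmed reads with Cutadapt 1.18, aligned them to mm10 with STAR 2.5.3, counted genes with RSEM 1.3.0 and normalized with DESeq2 1.26. The deposited values are a signal: gene counts divided by a size factor. They were whole multiples of what 1 read is worth in their library in 100% of cases (tolerance 0.01), which gave back reads for depth and for count tests. In 2 libraries, resting iTreg 2 and restimulated iTreg 1, a read is worth 1.01, so there the deposited values alone hardly differ from whole reads and this check says less.

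Genes reaching 10 normalized counts in 3 or more libraries were kept, and log2(value + 1) was fitted with limma 3.58.1 (R 4.3.3; trend in the prior variance), once over 15 libraries (Tconvs, tTregs, resting iTregs; 11495 genes) and once over 12 (iTregs; 11105 genes). Fold changes are on this scale, and p-values were adjusted by Benjamini-Hochberg over all genes tested. Per-kilobase levels used the shortest principal transcript of GENCODE M21. The script was tested on simulated data. Alternatives were other scalings, pseudocounts, filters, sample sets, left-out libraries, edgeR and DESeq2. Named members were 17 chosen for known roles, all second genes, in each comparison the 3 largest called rises and falls without overlap and the 2 members furthest above and below the median, and the 5 most alike genes outside. Members and lists were chosen with earlier results of these data known. Results of some genes are not reported here. All 6 snoRNA host genes listed were absent from the table. Depth was 5256800 to 15685234 reads per library.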

Additional observations from a re-analysis of the deposited data

Results flagged for a closer look

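The activation response of 16 members differed between tTregs and Tconvs by the interaction test in limma (adjusted p below 0.05, absolute difference above 0.5 on the log2 scale), 19.3% of those tested, against 34.7% of all genes. The response in tTregs was the higher for 13, among them Rps27rt (1.20), Rps27 (1.17), Rps29 (0.95), Rpl8 (0.91), Rps19 (0.86), Rps21 (0.76), Rps28 (0.74), Rpl35 (0.69), Rps14 (0.68), Rplp1 (0.53), Rps15 (0.51) and Rps7 (0.51). It was the lower for Rps12 (−0.75), Rps27l (−0.75) and Rpl7l1 (−0.55). Rps27 and Rps27rt share most of their sequence and are not separate results.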

How the results depend on the processing

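Calls of members were within 1.5 times the reported number for pseudocounts, filters, edgeR, DESeq2, size factors within the fit, all 24 libraries in one fit and only the groups compared. Quantile normalization gave 24 calls (resting tTregs against resting Tconvs), 23 (resting iTregs against resting tTregs) and 8 (against activated Tconvs); the same total over all genes gave 26 and over non-member genes 29 for the second. The share of all genes by adjusted p alone was not counted. By that rule the calls of members were 38 and 58 on activation of Tconvs and tTregs, 53 and 57 for resting iTregs against resting and activated Tconvs, 37 on restimulation and 3 with CsA. Above a log2 fold change of 1 they were 5, 3 and 2 (activations and interaction), 27, 4, 19 and 1 (tTregs, then iTregs against resting Tconvs, tTregs and activated Tconvs, the last reversed in direction) and 0 on restimulation. Leaving out replicates gave 24 to 28 and 23 to 48 calls on activation, 7 to 31 for the interaction, 68 to 71, 20 to 35, 43 to 64 and 18 to 45 among resting groups, 0 to 3 on restimulation and 0 with inhibitors; single libraries were left out after seeing the data, and 21 calls without resting iTreg library 3 reversed the majority. Without mitochondrially encoded genes the share of reads was 16.4% in resting Tconvs, 14.4% in restimulated iTregs and 15.2% with CsA. Nothing in the labels says that replicate numbers pair the libraries. The correlation of same-numbered deviations averaged −0.0070 (−0.42 to 0.24) over Tconvs, tTregs and resting iTregs and 0.15 (−0.04 to 0.30) within iTregs, against −0.075 for other numbers there, and 9 of 15 and 10 of 12 libraries correlated best with their own number, a hint from the data only. The fit with a replicate block gave 25 calls on activation of Tconvs, 36 of tTregs and 16 for the interaction, 1 on restimulation and 0 in the inhibitor comparisons. On adjusted p without the fold threshold, the block moved the members with CsA from 3 to 12 (11 higher, 1 lower), on restimulation from 37 to 43 and with the ORAI inhibitor from 0 to 1. The interval of Rps19bp1 between inhibitors became −0.55 to −0.03.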
